A study of Mus musculus with 8 samples.

Results

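The 6 genes described here encode signals by which bulge cells of the hair follicle reach neighbouring pigment cells. They are the endothelins Edn1, Edn2 and Edn3, the endothelin-converting enzymes Ece1 and Ece2, and Kitl, the ligand of the receptor KIT. They were chosen by symbol, for their part in a pathway through which NFIB in the bulge is known to hold back melanocyte stem cells. All 6 were found, among 46517 genes in the deposited table of transcript abundance. The rule used gene names and no measured value.

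Melanocyte stem cells share the bulge and hair germ with the epithelial stem cells and depend on them for cues. Endothelins are made as long precursors, cut first by furin-type proteases and then by converting enzymes to a short peptide that acts on the receptors EDNRA and EDNRB. EDNRB is the endothelin receptor of melanocytes. Kit ligand is made on the cell membrane, can be shed by proteases, and is needed for melanocyte survival and migration. NFIB and NFIX are nuclear factor I proteins, which bind DNA and regulate transcription, and earlier work on the bulge named Edn2 as a gene that NFIB keeps low.

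RNA was sequenced from hair follicle stem cells of male mice at postnatal day 70, in the second resting phase of the hair cycle, in 8 libraries from 4 groups of 2. All animals carried R26-YFP fl/fl. The WT group (animals 34 and 82) was NFIB fl/fl and NFIX fl/fl without Cre. NFIB-cKO (81 and 85) was Sox9-CreER with NFIB fl/fl. NFIX-cKO (32 and 88) was Sox9-CreER with NFIX fl/fl and 1 floxed NFIB allele (NFIB fl/+), so it is no clean single knockout. NFIB/X-dKO (33 and 36) was Sox9-CreER with both genes fl/fl. Sox9-CreER is a hormone-dependent Cre driven by Sox9, a gene active in the bulge, and deletion is limited to cells in which it worked. All cells were sorted as integrin alpha 6 positive, CD34 positive and Sca-1 negative. The knockout cells were also sorted as YFP positive and the WT cells were not, so that Cre, the YFP gate and the deletion cannot be told apart in any comparison with WT. Each library carried its own animal number, and replicates were taken as separate animals.

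Expected counts for 5 libraries summed to between 57173266 and 66854625, and depth is unknown for the other 3 (both WT libraries and NFIB-cKO 81), since TPM, an abundance corrected for transcript length and scaled to 1 total, keeps none. All 10 bulge stem cell markers examined, from Cd34 to Krt15, were expressed in every library, at a summed 24326 to 34958 TPM, though Lhx2 and Lgr5 fell in NFIB/X-dKO against WT (limma adjusted p = 0.00612 and 0.0128). Total Nfib stood at 209 to 230 TPM in WT, 233 to 293 in NFIB-cKO, 148 to 200 in NFIX-cKO and 377 to 389 in NFIB/X-dKO, and total Nfix at 123 to 158 TPM throughout. Total Nfib was thus no lower in the groups labelled as lacking it. It was higher in NFIB-cKO and NFIB/X-dKO together than in WT and NFIX-cKO (log2 0.70 ± 0.13, limma adjusted p = 0.0405). That difference ran from 0.58 to 0.81 over the alternative fits. The call held in 4 of 12 alternatives, and ended with no filter on low values and in most fits with 1 library left out. Reads from outside the floxed part count towards these totals, so they check no label, and the group names below stand for the labels. Animals numbered in the 30s and in the 80s also differed: 15.8% of 15434 genes passed the limma test between them, with groups in the model, and 0 of 5 tested members did. WT and NFIX-cKO hold 1 animal of each number series, NFIB-cKO only 80s and NFIB/X-dKO only 30s. The comparison of the 4 NFIB-deleted libraries (NFIB-cKO and NFIB/X-dKO) with the 4 NFIB-retaining ones (WT and NFIX-cKO) holds 2 of each series a side. Cre and the YFP gate are not balanced in it. Both NFIB-deleted groups had them, and on the NFIB-retaining side NFIX-cKO had them and WT did not.

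The 3 endothelin genes encode 21-residue peptides that are much alike. Their coding bases are shown to let a reader see how near the ligands are, 5′ to 3′ on the transcript strand, from GENCODE M21 transcripts. Capitals mark the 18 of 63 positions at which the genes do not all have the same base.
Edn1: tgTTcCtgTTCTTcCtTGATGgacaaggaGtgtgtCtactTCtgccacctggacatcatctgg
Edn2: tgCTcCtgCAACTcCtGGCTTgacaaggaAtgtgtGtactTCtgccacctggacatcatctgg
Edn3: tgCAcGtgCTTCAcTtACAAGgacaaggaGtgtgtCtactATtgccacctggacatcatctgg
Edn1 and Edn2 share 53 of the 63 bases and 18 of 21 residues. Edn3 shares 50 bases with Edn1 and 48 with Edn2, and 15 residues with each. Most capitals lie in the first part of the stretch, and the end that all the peptides share is the same in all 3 down to the base.

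Of the 6 genes, Edn2 and Ece1 showed the clearest separation by Nfib status, and their promoters are shown because NFI factors are the proteins deleted here. Each window runs from 250 bases before to 50 after a RefSeq start site on GRCm38, on the gene's plus strand. Capitals mark TTGGC, the core of the NFI motif, or its reverse complement GCCAA. The Edn2 window is chr4:120160956-120161255 and the first of 4 Ece1 windows is chr4:137861987-137862286.
Edn2: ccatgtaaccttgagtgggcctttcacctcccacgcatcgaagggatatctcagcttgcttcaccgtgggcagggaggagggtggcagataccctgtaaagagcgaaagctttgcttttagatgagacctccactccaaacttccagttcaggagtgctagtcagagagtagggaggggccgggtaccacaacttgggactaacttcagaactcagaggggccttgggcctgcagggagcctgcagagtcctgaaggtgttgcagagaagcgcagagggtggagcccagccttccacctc
Ece1: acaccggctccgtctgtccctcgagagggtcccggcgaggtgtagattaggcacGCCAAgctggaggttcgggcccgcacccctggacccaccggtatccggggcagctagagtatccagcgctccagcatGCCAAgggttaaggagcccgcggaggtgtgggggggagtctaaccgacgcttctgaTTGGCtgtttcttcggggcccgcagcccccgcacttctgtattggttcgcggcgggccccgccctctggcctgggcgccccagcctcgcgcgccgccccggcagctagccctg
The first Ece1 window holds the core 3 times, the second, which overlaps it, 3 times, the third 1 time and the fourth 0 times. The windows of Edn1, Edn2, Edn3 and Kitl hold it 0 times. The Ece2 window holds it once, after the start site. On both strands, 46.7% of 32851 mouse promoter windows of the same 300 bases hold the core at least once, and 14.4% hold it 2 or more times. The full palindrome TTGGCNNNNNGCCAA, which contains the core on each strand, was in 0 of the 9 windows of these genes and in 0.0365% of all windows. A match describes letters in a window, and these counts say nothing of binding.

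By level per transcript length, Ece1 was the most abundant member, between 76.1 and 168 TPM. Kitl (12.9 to 21.6 TPM) and Edn2 (3.93 to 33.3 TPM) followed, then Ece2 (4.89 to 9.10 TPM), Edn1 (0.39 to 2.01 TPM) and Edn3 (0 to 1 TPM). Edn2 was thus the leading endothelin transcript in every library, and Ece1 the leading converting enzyme. The plot of TPM by library shows each value.

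**Figure D1:**
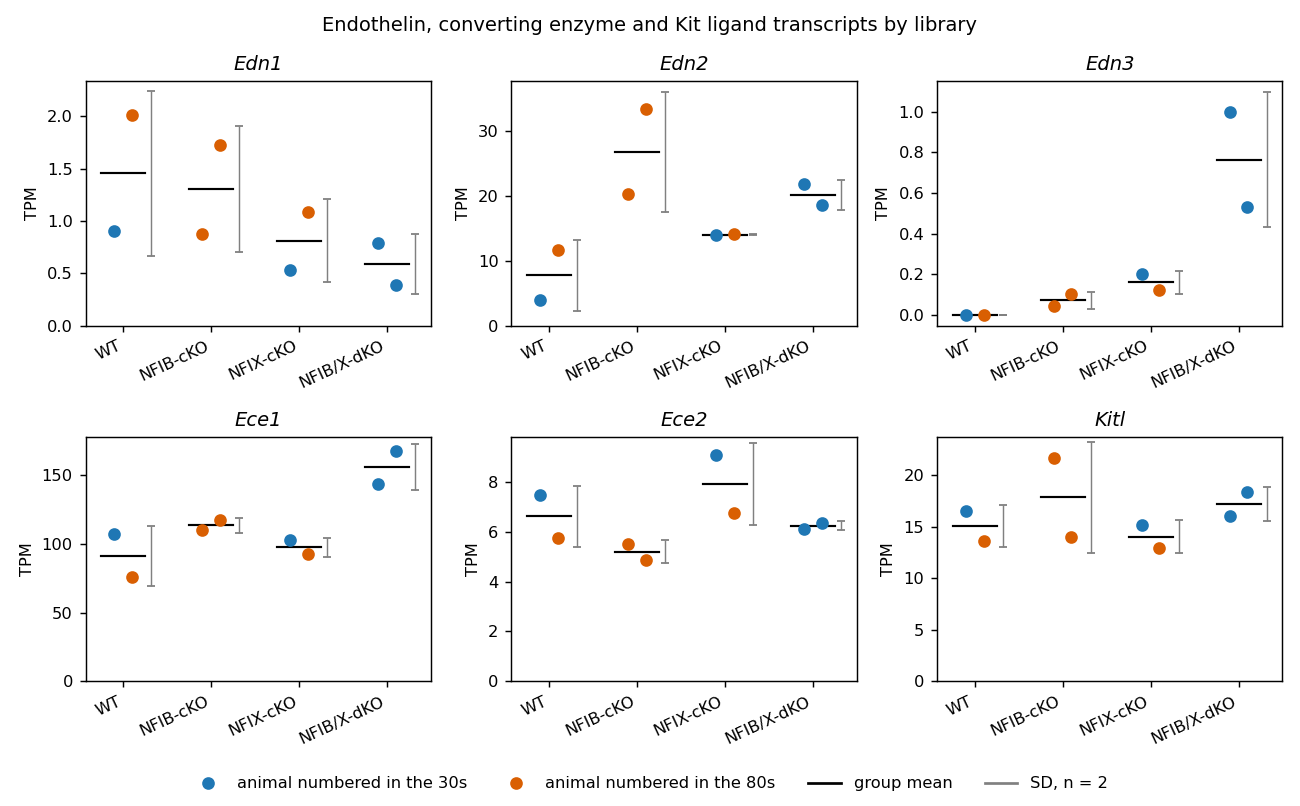
Transcript abundance (TPM, y axis) of the 6 genes in the 4 groups (x axis), 1 panel a gene with its own scale. Points are libraries, coloured by number series, black lines are group means and grey bars SD (n = 2). Edn2 and Ece1 lie higher in all 4 NFIB-deleted libraries than in any NFIB-retaining library.

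Edn2 encodes endothelin-2 and lies on chromosome 4 (120161206 to 120167360, GRCm38). It was at 3.93 and 11.64 TPM in WT 34 and 82, 13.96 and 14.09 in NFIX-cKO 32 and 88, 21.78 and 18.53 in NFIB/X-dKO 33 and 36, and 20.26 and 33.3 in NFIB-cKO 81 and 85. The 4 NFIB-deleted libraries were all higher than the 4 NFIB-retaining ones, and WT 34 was the lowest of all. In order of group means, NFIB-cKO (26.8 ± 9.22 TPM, SD, n = 2) and NFIB/X-dKO (20.2 ± 2.30) overlapped, whereas NFIX-cKO (14.0 ± 0.0919) and WT (7.79 ± 5.45) did not overlap with each other or with the higher groups.

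The mean of Edn2 was 3.44 times that of WT in NFIB-cKO, 2.59 times in NFIB/X-dKO and 1.80 times in NFIX-cKO. On the log2(TPM + 1) scale, NFIB-cKO stood 1.77 ± 0.43 (SE) above WT, NFIB/X-dKO 1.42 ± 0.43 and NFIX-cKO 0.93 ± 0.43. None passed after adjustment over all genes by limma (adjusted p = 0.133, 0.165 and 0.760), at a threshold of 0.05. Across the 4 NFIB-deleted against the 4 NFIB-retaining libraries the difference was 1.13 ± 0.30 (95% interval 0.41 to 1.85, limma adjusted p = 0.127), and the TPM mean was 2.15 times higher. These levels therefore separate by Nfib status in every library without passing the test. The change with Nfib loss was smaller where Nfix was also deleted, by -1.28 ± 0.61, but that contrast did not pass (limma adjusted p = 0.524), and it was -0.61 without WT 34, -0.60 with the number series as a covariate and -1.96 without WT 82.

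WT 34 and WT 82 differ from each other by more than WT 82 differs from NFIX-cKO. Without WT 82, the Edn2 difference was 2.45 in NFIB-cKO (limma adjusted p = 0.0369), 2.10 in NFIB/X-dKO (0.0450) and 1.47 between NFIB-deleted and NFIB-retaining libraries (0.0267). Without WT 34, these were 1.10 (0.296), 0.74 (0.154) and 0.79 (0.108). The NFIX-cKO difference was 1.61 without WT 82 and 0.25 without WT 34, with no call. The comparisons with WT within a number series rest on the same libraries. NFIB-cKO stood 1.10 above WT 82 within the 80s, and NFIB/X-dKO stood 2.10 above WT 34 within the 30s. The series term for Edn2 was 0.69 ± 0.36 higher in the 80s and did not pass (limma adjusted p = 0.208). With the series as a covariate, NFIB-cKO, all of the 80s, stood 1.43 above WT, and NFIB/X-dKO, all of the 30s, 1.76. By counts, Edn2 was 0.27 ± 0.17 higher in NFIB/X-dKO than in NFIX-cKO and was not called (edgeR adjusted p = 0.506). That difference was 0.42 within the 30s, against NFIX-cKO 32 alone, and 0.13 without NFIX-cKO 32.

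**Figure D2:**
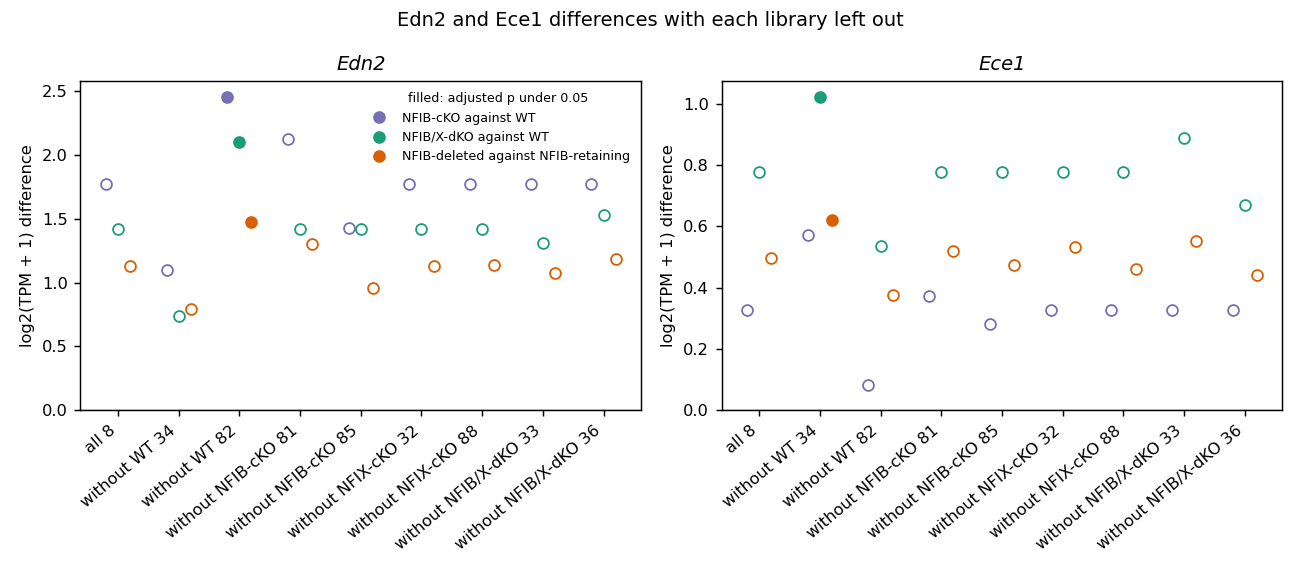
Differences in log2(TPM + 1) (y axis) for Edn2 and Ece1 in 3 comparisons, with all 8 libraries and with each library left out in turn (x axis). Filled points pass an adjusted p of 0.05. Edn2 passes without WT 82 and in no other setting shown, and Ece1 passes without WT 34 in 2 of the 3 comparisons and in no other setting shown.

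Markers of other cells coincided with Edn2 at its extremes, and some melanocyte markers also separated by Nfib status. The 12 melanocyte markers summed to 66.2 to 88.01 TPM in NFIB-retaining and 81.6 to 115 TPM in NFIB-deleted libraries, and WT 82 lay above 3 of the 4 NFIB-deleted libraries. Most of this was Mitf, at 45.3 to 79.6 TPM, and 6 of the 12 reached 1 TPM in at least 2 libraries. Tyrp1 and Mlana were higher in all 4 NFIB-deleted libraries than in any NFIB-retaining one, and the other markers overlapped. Of all 15434 genes tested, 6.84% were likewise higher without overlap. The 6 tested markers had a median difference of 0.59 between these libraries, beside 0.10 for all genes, and limma called 0 of them. WT 34, the library lowest in Edn2, was lowest for 8 of the 12 markers and tied for lowest in 1 (Oca2, at 0 in both WT libraries and NFIX-cKO 88), but not for Mitf, Tyr or Slc24a5. The pigment enzyme Dct, for one, was at 5.76 TPM in WT 34 and at 7.91 to 15.8 TPM elsewhere, and Sox10 at 0.28 TPM and at 0.47 to 0.85 TPM. The 6 markers of proliferating cells summed to 24.5 TPM in WT 34 and 247 TPM in NFIB-cKO 85, the lowest and the highest library for Edn2 too, and to 39.8 to 108 TPM in the others. NFIB/X-dKO 33, at 21.78 TPM of Edn2, had the next to lowest of these sums, 39.8 TPM. The part of either marker list in the Edn2 values was not tested. In such bulk samples fewer cells of a type and less RNA per cell cannot be told apart.

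Edn1 encodes endothelin-1, best known as a product of blood vessel lining (chromosome 13, 42301476 to 42307990). It was at 0.9 and 2.01 TPM in WT 34 and 82, 0.88 and 1.73 in NFIB-cKO 81 and 85, 0.53 and 1.09 in NFIX-cKO 32 and 88, and 0.79 and 0.39 in NFIB/X-dKO 33 and 36. The groups overlapped, save that both NFIB/X-dKO libraries lay under both libraries of WT and of NFIB-cKO. The difference between NFIB/X-dKO and WT was -0.60 ± 0.34 (limma adjusted p = 0.405), and that between NFIB-deleted and NFIB-retaining libraries was -0.13 ± 0.24 (95% interval -0.69 to 0.44, adjusted p = 0.850).

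In WT and in NFIX-cKO, the groups with an animal of each number series, Edn1 was higher in the 80s animal. The term for the series was 0.56 ± 0.25 higher in the 80s and did not pass (limma adjusted p = 0.157). Of 8 endothelial markers, 2 reached 1 TPM in at least 2 libraries (Pecam1 and Egfl7), the list summed to 5.59 to 7.11 TPM, and Cdh5 and Cldn5 were at 0 or no more than 0.02 TPM. An antisense gene, Gm47118, overlaps Edn1 on the opposite strand, and whether counting used strand is not given in the sources used here.

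Edn3 encodes endothelin-3, the ligand whose loss leaves parts of the skin without melanocytes (chromosome 2, 174760619 to 174784042). It was listed at 0 TPM in both WT libraries, at 0.04 and 0.1 in NFIB-cKO 81 and 85, 0.2 and 0.12 in NFIX-cKO 32 and 88, and 1 and 0.53 in NFIB/X-dKO 33 and 36. The NFIB/X-dKO libraries were above all others, though still at or under 1 TPM, and Edn3 did not pass the filter of 1 TPM in at least 2 libraries for the limma test. Its expected counts were 109 and 57 in NFIB/X-dKO, 18 and 13 in NFIX-cKO and 12 in NFIB-cKO 85. No fold is given against WT, where depth is unknown.

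By counts, Edn3 was 2.35 ± 0.51 (log2, SE; 95% interval 0.99 to 3.71) higher in NFIB/X-dKO than in NFIX-cKO, and edgeR did not call it (adjusted p = 0.203). DESeq2 on the same counts called it at 2.35 ± 0.67 (adjusted p = 0.0149), along with 4.47% of 18670 genes given an adjusted p, where edgeR called 0.322% of 18349. The edgeR value without NFIX-cKO 32 was 2.53 (adjusted p = 0.0239), in a fit that called 6939 of 19051 genes. Without NFIB/X-dKO 33 it was 1.77 (adjusted p = 0.9997), in a fit that called 0 of 19109. Markers of fibroblasts and dermal papilla, cells outside this sort, summed to 128 and 135 TPM in NFIB/X-dKO and to 165 to 233 TPM in the other libraries. Most of this sum was Col6a1, which fell in NFIB/X-dKO against WT from 193.61 and 161.85 TPM to 71.94 and 66.48 TPM (-1.34 ± 0.14, limma adjusted p = 0.00612). Col1a1 went the other way, from 12.21 and 16.65 TPM in WT to 53.32 and 65.13 TPM in NFIB/X-dKO (1.97 ± 0.30, limma adjusted p = 0.0219), and it also rose in NFIB-cKO, to 77.31 and 55.09 TPM (2.12 ± 0.30, adjusted p = 0.0339). Col1a2 ran from 2.17 to 33.6 TPM, and the other 5 of the 8 markers were at 0.45 TPM or less, with Lum and Twist2 at 0.04 TPM or less. The part of these markers in the Edn3 values was not tested.

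Ece1 encodes the main converting enzyme (chromosome 4, 137862237 to 137965229). It was at 107.08 and 76.07 TPM in WT 34 and 82, 102.65 and 92.78 in NFIX-cKO 32 and 88, 109.91 and 117.31 in NFIB-cKO 81 and 85, and 144.06 and 168.15 in NFIB/X-dKO 33 and 36. The NFIB/X-dKO libraries were above all others. The NFIB-cKO libraries were above WT 34 by a small margin, and NFIX-cKO lay within the range of WT. The series term for Ece1 was -0.32 ± 0.12 for the 80s (limma adjusted p = 0.116), and NFIB/X-dKO holds only 30s animals. With the series as a covariate, NFIB/X-dKO stood 0.62 above WT.

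Its difference from WT was 0.78 ± 0.18 in NFIB/X-dKO (limma adjusted p = 0.0812), 0.33 ± 0.18 in NFIB-cKO (0.540) and 0.11 ± 0.18 in NFIX-cKO (0.975). The NFIB-cKO value was 0.084 without WT 82 and 0.57 without WT 34. Between NFIB-deleted and NFIB-retaining libraries it was 0.50 ± 0.13 (95% interval 0.19 to 0.80, adjusted p = 0.114), a TPM ratio of 1.42. The median of all genes tested was 0.16 in the first and 0.10 in the last of these comparisons, and median-of-ratios scaling brought it to 0.01 and 0.00. After that scaling Ece1 stood at 0.60 (limma adjusted p = 0.0816) and 0.38 (0.122).

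Ece1 was called between NFIB-deleted and NFIB-retaining libraries with the number series as a covariate (0.50 ± 0.09, adjusted p = 0.0295, with 1214 of 15434 genes called) and without WT 34 (0.62, adjusted p = 0.0446). It was also called in NFIB/X-dKO against WT without WT 34, at 1.02. Without WT 82 the Ece1 difference was 0.54 in NFIB/X-dKO against WT and 0.38 between NFIB-deleted and NFIB-retaining libraries, with no call. Within the 30s, against WT 34 alone, NFIB/X-dKO stood 0.54 above WT, also with no call. By counts, it was 0.41 ± 0.14 higher in NFIB/X-dKO than in NFIX-cKO (edgeR adjusted p = 0.314), and 0.49 within the 30s, against NFIX-cKO 32 alone (adjusted p = 0.0470), in a fit that called 1741 of 19108 genes. An antisense gene, Gm13012, lies within Ece1.

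Ece2 encodes a converting enzyme best known from the nervous system (chromosome 16, 20629828 to 20646485). It was at 7.5 and 5.75 TPM in WT 34 and 82, 5.53 and 4.89 in NFIB-cKO 81 and 85, 9.1 and 6.75 in NFIX-cKO 32 and 88, and 6.11 and 6.37 in NFIB/X-dKO 33 and 36. NFIX-cKO lay highest and NFIB-cKO lowest by mean, and each knockout group except NFIB-cKO overlapped with WT. The difference between NFIB-deleted and NFIB-retaining libraries was -0.29 ± 0.15 (95% interval -0.64 to 0.06, limma adjusted p = 0.419). By counts, NFIB/X-dKO was -0.58 ± 0.21 from NFIX-cKO (edgeR adjusted p = 0.325). Within WT and NFIX-cKO the 30s animal was the higher, with a series term of -0.36 ± 0.12 for the 80s (limma adjusted p = 0.0843). The protein-coding gene Gm49333 covers 16093 bases of Ece2 on the same strand in GENCODE M21. It has no entry among the deposited values, so any of its reads there could count towards Ece2, and the Ece2 values are uncertain. The mean transcript length of Ece2, weighted by isoform abundance, was 1135 to 1144 bases, beside 4068 to 4227 for Ece1. Whether the Ece2 transcripts counted encode the whole enzyme was not tested.

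Kitl lies on chromosome 10 (100015630 to 100100416). It was at 16.46 and 13.6 TPM in WT 34 and 82, 21.61 and 14.02 in NFIB-cKO 81 and 85, 15.16 and 12.89 in NFIX-cKO 32 and 88, and 16.06 and 18.37 in NFIB/X-dKO 33 and 36. All groups overlapped with their neighbours except NFIX-cKO and NFIB/X-dKO. The highest library, NFIB-cKO 81, stood well above its partner. Kitl differed from WT by 0.21 ± 0.23 for NFIB-cKO, -0.09 ± 0.23 for NFIX-cKO and 0.19 ± 0.23 for NFIB/X-dKO (limma adjusted p = 0.796, 0.987 and 0.663). The 95% intervals reached no higher than 0.75 and no lower than -0.63. By counts, which ran from 2949 to 3510, the difference between NFIB/X-dKO and NFIX-cKO was 0.04 ± 0.10 (95% interval -0.23 to 0.31, edgeR adjusted p = 0.882). This was the narrowest interval of any member in that comparison. The mean transcript length of Kitl, weighted by isoform abundance in the deposited gene tables, was 5049 to 5340 bases, both bounds being NFIB/X-dKO libraries.

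Over the whole set, limma called 0 of the 5 tested members in each of its 5 contrasts between genotypes, and edgeR 0 of 6. The background was low too: of 15434 genes, against WT 0.719% were called for NFIB-cKO, 0.149% for NFIX-cKO and 2.88% for NFIB/X-dKO, with 2.48% between NFIB-deleted and NFIB-retaining libraries, and 0.117% in the non-additive contrast. In the edgeR comparison, 0.322% of 18349 genes were called. At an unadjusted p under 0.05 there was 1 member in NFIB-cKO against WT (Edn2), 0 in NFIX-cKO, 2 in NFIB/X-dKO (Edn2 and Ece1), 2 between NFIB-deleted and NFIB-retaining libraries (the same genes), 0 in the non-additive contrast and 3 by edgeR (Edn3, Ece1 and Ece2). The shares of all genes tested at that level were 12.6%, 6.81%, 16.8%, 15.4%, 9.43% and 14.7%. In the last of these DESeq2 called 1 of 6 beside 4.47% of all genes, and limma on TPM called 0 of 5 beside 0.784% of 15434 genes. Of the genes called in NFIB/X-dKO against WT 56.2% were higher, and 45.3% after median-of-ratios scaling. The same shares were 59.9% and 45.4% between NFIB-deleted and NFIB-retaining libraries. With no overlap between the 4 NFIB-deleted and 4 NFIB-retaining libraries, 2 of 5 members were higher and 0 lower, where 6.84% of all genes tested were higher and 2.11% lower.

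**Figure D3:**
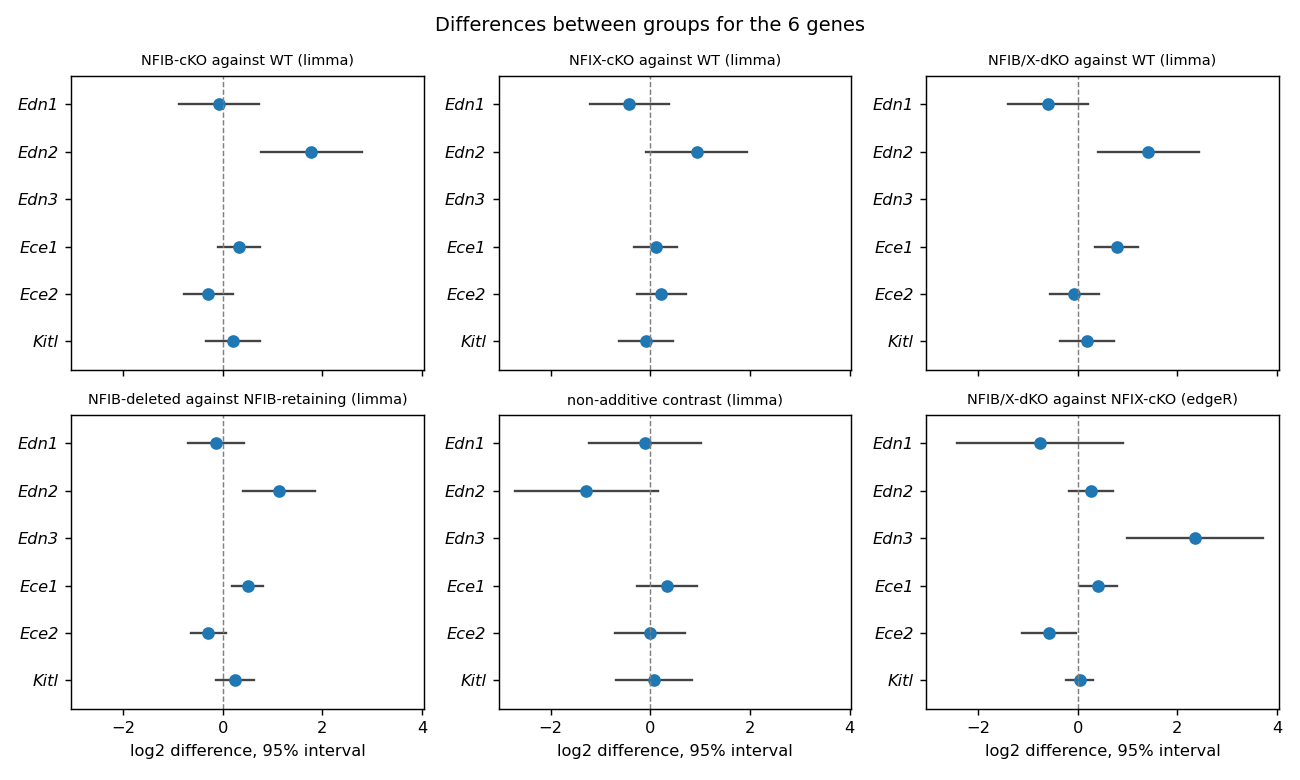
Differences on the log2 scale (x axis, points) with 95% intervals (lines) for each gene (y axis) in 6 comparisons. The first 5 panels are limma on log2(TPM + 1), where Edn3 was not tested, and the last is edgeR on counts. Intervals are not adjusted for the number of genes, and those of Edn2 and Ece1 lie above 0 both for NFIB/X-dKO less WT and for NFIB-deleted less NFIB-retaining libraries.

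The receptors were next. Ednra was at 53.99 TPM in WT 34 and 17.72 in WT 82, and between 11.4 and 20.05 TPM in the 6 knockout libraries. The difference from WT was -1.35 ± 0.47 in NFIB-cKO (limma adjusted p = 0.280) and -0.90 ± 0.47 in NFIB/X-dKO (0.375). WT 34 stood far above every other library. WT 82 also lay above NFIB-cKO (11.75 and 11.4 TPM) and NFIB/X-dKO (16.1 and 16.39 TPM), and the size without WT 34 was not examined. The series term for Ednra passed the test, at -1.11 ± 0.21 for the 80s (adjusted p = 0.0345). The receptors of melanocytes were low throughout, with Ednrb at 0.22 to 0.5 TPM and Kit at 0.61 to 1.39 TPM. Kit stood 0.36 ± 0.16 higher in NFIB-deleted libraries (adjusted p = 0.355).

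Of 12 other genes of endothelin processing and reception, 5 were tested, and 0 passed in each direction in each limma contrast between genotypes and 0 of 9 by edgeR. Their median between NFIB-deleted and NFIB-retaining libraries was 0.12, beside 0.10 for all genes. Pcsk6, a precursor protease, was at 14.9 to 50.5 TPM in NFIB-retaining and 44.7 to 97.5 TPM in NFIB-deleted libraries (1.43 ± 0.35, limma adjusted p = 0.0963). Mme, a protease that degrades endothelins, was at 28.6 and 17.8 TPM in WT and 3.84 to 10.1 TPM in the knockouts (-1.76 ± 0.36 in NFIB-cKO, adjusted p = 0.0924). Furin ran from 29.5 to 46.9 TPM.

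Of 8 other genes of Kit ligand shedding and Kit signalling, 7 were tested. Adam10, a protease that sheds membrane proteins, rose in NFIB/X-dKO against WT, from 17.01 and 15.56 TPM to 31.04 and 30.68 TPM (0.88 ± 0.15, limma adjusted p = 0.0283). It also rose between NFIB-retaining and NFIB-deleted libraries (0.68 ± 0.10, adjusted p = 0.0243). The former call ended without any of WT 34, WT 82, NFIB-cKO 81, NFIB-cKO 85, NFIB/X-dKO 33 and NFIB/X-dKO 36, and the latter without any of NFIB-cKO 81, NFIB-cKO 85, NFIX-cKO 88, NFIB/X-dKO 33 and NFIB/X-dKO 36, with sizes of 0.82 to 0.94 and 0.62 to 0.73. The former also ended with only WT and NFIB/X-dKO in the fit (adjusted p = 0.0657) and within the 30s (0.0959). No other gene of this list passed in those contrasts, and 0 of 8 passed by edgeR. The list's median between NFIB-deleted and NFIB-retaining libraries was 0.23. Adam17, another shedding protease, ran from 21.7 to 30.7 TPM. By number series, the ubiquitin ligase gene Cbl, which acts on activated KIT, was lower in the 80s (-1.22 ± 0.14, limma adjusted p = 0.0198), and Socs1, a signalling inhibitor, was higher (1.01 ± 0.21, adjusted p = 0.0382).

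Of 23 other signals to melanocytes, 22 were matched by symbol and 13 were tested. In NFIB/X-dKO against WT 2 rose and 0 fell, with a median of 0.44 for the list and 0.16 for all genes. Hgf, a melanocyte growth factor, went from 0.49 and 0.55 TPM to 5.22 and 3.33 TPM (1.77 ± 0.26, limma adjusted p = 0.0194). Tgfb3, a growth factor of the TGF-beta family, went from 20.66 and 20.05 TPM to 58.41 and 62.06 TPM (1.52 ± 0.23, adjusted p = 0.0221). Tgfb2, another member of that family, was at 3.37 and 8.52 TPM in WT and 15.3 and 17.16 TPM in NFIB/X-dKO (1.42 ± 0.34, adjusted p = 0.0847). The calls of Hgf and Tgfb3 ended without WT 34, WT 82, NFIB/X-dKO 33 or NFIB/X-dKO 36, with sizes of 1.51 to 2.03 for Hgf and 1.48 to 1.56 for Tgfb3, as well as with no filter on low values. Each call held in 8 of 14 alternatives, and that of Hgf also ended within the 30s, at 1.80. Of this list 0 passed in the other limma contrasts between genotypes and 0 of 17 by edgeR. Col17a1, which bulge cells use to maintain melanocyte stem cells, was at 1578 to 2145 TPM throughout.

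**Figure D4:**
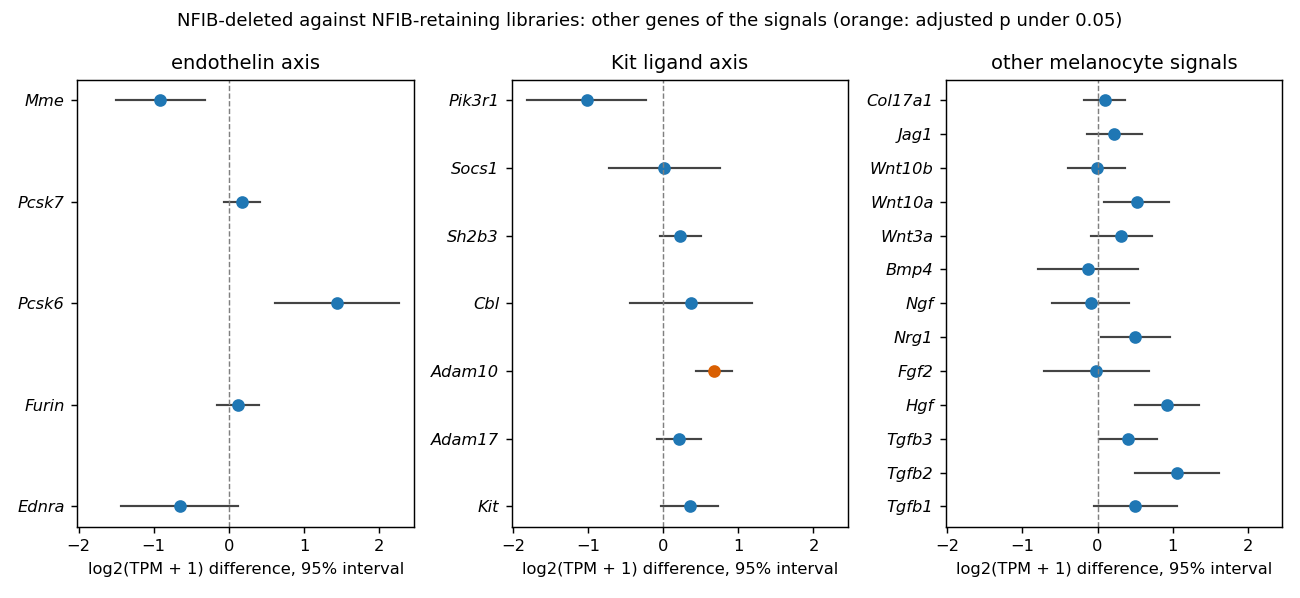
Differences in log2(TPM + 1) between NFIB-deleted and NFIB-retaining libraries (x axis, points) with 95% intervals (lines) for the tested genes of the 3 lists (y axis). Orange marks an adjusted p under 0.05, which Adam10 alone reached among these genes.

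Genes whose levels followed a member most closely were ranked by Pearson's r of log2(TPM + 1) over the 8 libraries, among 9977 genes at 5 TPM or more in at least 2 of them (9978 for Edn1). These values are a description, and the libraries share groups, number series and the TPM scale. For Edn2 the nearest were Arl6ip4 (0.97), Tmem51 (0.96), Cdk18 (0.95), the keratin gene Krt8 (0.95) and Brpf3 (0.94). For Ece1 they were Chmp4b (0.99), Ehd3 (0.98), Fam177a (0.98), the transcription factor gene Ovol2 (0.98) and Nub1 (0.98). For Edn1 they were the clock gene Per1 (0.97), Ets2 (0.96), Mknk2 (0.96), Nop56 (0.96) and Mat2a (0.95). For Kitl they were Fbxw17 (0.98), Phkb (0.97), Hmcn1 (0.95), Ankrd40 (0.95) and Zbtb8a (0.94). For Ece2 they were Gnmt (0.97), Pea15a (0.96), Cyp1b1 (0.95), Metrn (0.94) and Timm13 (0.94). The 5 sets held no gene in common and no other member. Tmem51 was at 5.32 TPM in WT 34, 9.16 in WT 82 and 12.6 to 15.6 TPM in the NFIB-deleted libraries, and Krt8 was at 2.72 TPM in WT 34 and 13.5 TPM in NFIB-cKO 85. Like Edn2, each was lowest in WT 34 and highest in NFIB-cKO 85.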

How the data were processed

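TPM for all 8 libraries came from the authors' deposited table of 46609 features, 92 of them spike-in sequences with 0% of the TPM, and expected counts and mean transcript lengths from the authors' deposited gene tables for 5 libraries. The submitters' processing notes name RSEM (1.2.30), Bowtie2 (2.2.9) and the mm10 build (GRCm38). The annotation release is not given in the sources used here. Groups came from titles, and 0 columns were unmapped.

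Genes with at least 1 TPM in at least 2 libraries (15434, with 5 of 6 members) were tested with limma 3.58.1 (R 4.3.3) on log2(TPM + 1), a pseudocount of 1 that understates changes of low genes. A single fit held all 8 libraries with a variance trend (4 residual and 3.097 prior degrees of freedom) and Benjamini-Hochberg adjustment at 0.05. The non-additive contrast is NFIB/X-dKO minus NFIX-cKO, minus NFIB-cKO, plus WT. NFIB/X-dKO and NFIX-cKO were compared by counts, rounded, with edgeR 4.0.16 (quasi-likelihood, TMM, filterByExpr, 18349 genes), with SEs taken from its F statistic, and DESeq2 1.42.0 as an alternative. On simulated data with 200 changed genes, NFIB-deleted against NFIB-retaining recovered 58% of 2-fold and 90% of 4-fold changes among 15434 genes, NFIB/X-dKO against WT 30% and 80%, and edgeR 11.2% and 72.9% among 18349.

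Named were all members, list genes past the test, the receptors and the 5 nearest genes per member, skipping predicted genes. Pcsk6, Mme, Furin, Adam17, Tgfb2 and Col17a1, and the markers printed singly, were picked after their values were seen. The members and lists were chosen with earlier results of these data known. Coordinates are from GENCODE M21, and promoters from RefSeq on GRCm38.p6 (all 6 members matched).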

Additional observations from a re-analysis of the deposited data

How the results depend on the processing

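The limma comparisons were refitted with another pseudocount, no filter, median-of-ratios scaling, the number series as a covariate and each library left out, those with WT also with only the compared groups, and NFIB-cKO and NFIB/X-dKO less WT also within a series. Edn3 entered limma only without the filter. The edgeR comparison was refitted within the 30s, with each library left out and with DESeq2, DESeq2 size factors, no filter and limma. Its fit within the 30s is the same fit as that without NFIX-cKO 88. In the NFIX-cKO and non-additive contrasts 0 members were called throughout. Elsewhere the count went from 0 to 1 with the series covariate (NFIB-deleted libraries, Ece1), within the 30s (Edn2 for NFIB/X-dKO less WT, and Ece1 for NFIB/X-dKO less NFIX-cKO) and with DESeq2 (Edn3). With single libraries left out it ranged from 0 to 1 in each of the other 4 comparisons, the calls being Edn2 without WT 82, Ece1 without WT 34 or NFIX-cKO 88, and Edn3 without NFIX-cKO 32. Edn2 and Ece1 kept their sign under every alternative in NFIB-cKO and NFIB/X-dKO less WT and between NFIB-deleted and NFIB-retaining libraries: Edn2 ran over 1.10 to 2.45, 0.74 to 2.10 and 0.79 to 1.47, and Ece1 over 0.084 to 0.57, 0.54 to 1.02 and 0.38 to 0.62.

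No call was reversed, though the main fits called 0 members, and some uncalled differences changed sign. With the series covariate the non-additive contrast was 0.45 for Edn1 and -0.17 for Kitl, with scaling -0.12 for Kitl, and with a pseudocount of 0.1 it was 0.0064 for Ece2. Within the 30s Edn1 was 0.047 for NFIB/X-dKO less NFIX-cKO, beside -0.76 ± 0.63 with all libraries of these groups. With single libraries left out, Edn1 ranged from -0.41 to 0.25 in NFIB-cKO less WT, -0.30 to 0.036 between NFIB-deleted and NFIB-retaining libraries, -1.35 to 0.047 in NFIB/X-dKO less NFIX-cKO and -0.43 to 0.23 in the non-additive contrast. Kitl ranged from -0.088 to 0.50 in NFIB-cKO and -0.22 to 0.037 in NFIX-cKO less WT, -0.031 to 0.10 in NFIB/X-dKO less NFIX-cKO and -0.22 to 0.37 in the non-additive contrast. Ece2 ranged from -0.23 to 0.10 in NFIB/X-dKO less WT and -0.19 to 0.19 in the non-additive contrast, and Ece1 from -0.13 to 0.36 in NFIX-cKO less WT. The cause was not tested.

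Genes called over all alternatives ran from 11 to 200 in NFIB-cKO (111 as reported), 12 to 44 in NFIX-cKO (23) and 40 to 622 in NFIB/X-dKO (445) less WT, 63 to 1214 between NFIB-deleted and NFIB-retaining libraries (382), and 6 to 61 in the non-additive contrast (18). In NFIB/X-dKO less NFIX-cKO the 59 calls became 835 with DESeq2, 202 with no filter, 121 with limma, 6939 without NFIX-cKO 32, 1741 without NFIX-cKO 88 and 0 without either NFIB/X-dKO library. A group left with 1 library was taken to vary like the others. No paired analysis was possible because the groups share no animal number. In simulated data, most 2-fold changes between groups of 2 were missed, and Edn1 and Edn3 rest on 12 to 171 expected counts a library.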
